A study of Arabidopsis thaliana with 4 samples.

Results

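The genes described here are 37 nuclear *Arabidopsis thaliana* loci whose proteins carry out photosynthesis and photorespiration in the leaf. They were taken from a list of loci chosen by function, with earlier results of these data known. All 37 lay among the 17042 genes that could be counted, out of 37899 annotated nuclear genes. By function they comprise 7 light-harvesting proteins, 7 subunits of photosystem I, 3 of photosystem II, 4 electron carriers, 3 ATP synthase subunits, 6 proteins of carbon fixation and 7 of photorespiration. Poly(A) RNA of leaves, taken at an age of 3 weeks under long days, was sequenced (mRNA-Seq) to ask which genes depend on SUVR5, a SET-domain protein, and on the histone demethylase LDL1 that acts with it. All plants were of the Col-0 ecotype. The groups were a triple mutant (*suvr5 ldl1 ldl2*), a double mutant (*ldl1 ldl2*), *suvr5-1* alone, which is a T-DNA insertion line, and wild-type Col-0. The extraction protocol gives the *ldl1* allele of both multiple mutants as *ldl1-2*. Each genotype was 1 library. No difference given here therefore has a replicate check, a test on reads compares 2 libraries and not 2 genotypes, and intervals cover counting error only.

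Photosynthesis begins when light-harvesting proteins (LHC proteins), which hold chlorophyll around the photosystems, pass excitation to the reaction centres. Photosystem II splits water, plastocyanin and ferredoxin carry electrons to and from photosystem I, and ATP synthase and the Calvin cycle turn the products into sugar. When Rubisco takes oxygen in place of carbon dioxide, photorespiration recovers the carbon lost, by way of glycolate oxidase in peroxisomes and glycine decarboxylase in mitochondria.

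The libraries held between 10406023 and 15083462 mapped reads, of which 2584661 to 4610852 lay on exons of countable genes. Levels are given as RPKM, reads scaled by the length of the merged exons and by all reads on these exons. LDL2, whose gene is mutated in the double and triple mutants, had 5 reads in *suvr5 ldl1 ldl2*, 8 in *ldl1 ldl2*, 26 in *suvr5-1* and 25 in Col-0, which is too few to separate *ldl1 ldl2* from Col-0 at an adjusted P of 0.01. SUVR5 and LDL1 lay outside the countable stretches and were not analysed here. The leaf label was checked against markers of other organs. The root genes EXPA7 and LRX1 and the seed genes At2S3 and OLEO1 had no read in the 4 libraries, while the root gene NRT2.1 had 2 reads in *suvr5 ldl1 ldl2* and none in the others. The 5 floral genes together had 68, 70 and 41 reads in *suvr5 ldl1 ldl2*, *ldl1 ldl2* and *suvr5-1*, against 21 in Col-0. Of these, AG had 18 reads in *suvr5 ldl1 ldl2*, 10 in *ldl1 ldl2* and 4 in *suvr5-1*, against 0 in Col-0, SEP3 had 15 in *suvr5 ldl1 ldl2*, 51 in *ldl1 ldl2* and 28 in *suvr5-1*, against 5 in Col-0, and SEP1 had 33 in *suvr5 ldl1 ldl2*, 9 in *ldl1 ldl2* and 0 in *suvr5-1*, against 16 in Col-0. FAMA, a gene of the guard cell lineage, had 148 reads in *suvr5 ldl1 ldl2*, 46 in *ldl1 ldl2* and 136 in *suvr5-1*, against 117 in Col-0. The other guard cell gene, MYB60, had 16 reads in *suvr5 ldl1 ldl2*, 17 in *ldl1 ldl2* and 37 in *suvr5-1*, against 18 in Col-0. The low value of FAMA in *ldl1 ldl2* was thus not shared by MYB60. The epidermal gene ATML1 stood at 13.2 RPKM in *suvr5 ldl1 ldl2*, 14.6 in *ldl1 ldl2* and 14.3 in *suvr5-1*, against 10.4 in Col-0. The seed gene CRU3 had 3 reads in *suvr5 ldl1 ldl2* and 1 in *ldl1 ldl2*, against none in Col-0. SUC2, a sucrose transporter of phloem companion cells, stood at 215 RPKM in *suvr5 ldl1 ldl2*, 162 in *ldl1 ldl2* and 139 in *suvr5-1*, against 138 in Col-0. ACT7, an actin gene used as a reference in the study, stood at 370 RPKM in *suvr5 ldl1 ldl2* and 279 in both *ldl1 ldl2* and *suvr5-1*, against 213 in Col-0. The part of these differences in the values below was not tested.

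Copies of LHCB1, the major antenna protein of photosystem II, needed care before any value was read. LHCB1.2 (AT1G29910), LHCB1.1 (AT1G29920) and LHCB1.3 (AT1G29930) lie within 6.835 kb of chromosome 1 (TAIR10.1, 10472280 to 10479114), each with 1 exon block and a coding region of 804 bases that is between 95.65% and 96.39% identical to that of another copy. The coding window with the most differences is shown because only such bases tell the copies apart (TAIR10.1, RefSeq; bases 25 to 84 of each coding region, with capitals at the bases that are not the same in the 3 copies).
LHCB1.1, chr1:10475809-10475868, minus strand: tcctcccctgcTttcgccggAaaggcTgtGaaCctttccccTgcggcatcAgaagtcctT
LHCB1.2, chr1:10473163-10473222, minus strand: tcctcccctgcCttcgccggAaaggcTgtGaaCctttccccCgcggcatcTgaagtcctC
LHCB1.3, chr1:10478095-10478154, plus strand: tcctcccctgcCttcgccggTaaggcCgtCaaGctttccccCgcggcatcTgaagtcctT
The longest run that all 3 copies share is 62 bases, printed here from LHCB1.1 (chr1:10475192-10475253, minus strand), and has no capitals.
Shared run: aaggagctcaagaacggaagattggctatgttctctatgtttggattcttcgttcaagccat

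Positions whose 36 bases occur more than once in the genome were examined in the chloroplast and in 5 of the 37 genes. In the chloroplast, 52472 such positions had 0 reads in every library, beside 821558 to 1154204 reads elsewhere on that chromosome. Such repeated 36-base stretches made up 19.87% of the exon positions of LHCB1.2, 26.48% of LHCB1.1 and 26.1% of LHCB1.3, and 2.484% and 2.718% of the neighbouring glycolate oxidase genes GOX1 (AT3G14420) and GOX2 (AT3G14415). In these genes the read coordinates are displaced by a few bases from TAIR10.1, by -18 bp at the LHCB1 copies and 3 bp at GOX1 and GOX2 as estimated from exon starts. The repeated positions held 0 reads over the 4 libraries at -16 bp for the LHCB1 copies and at 7 bp for GOX1 and GOX2, displacements picked for having the fewest reads. At the unshifted coordinates used for counting they held 54975 reads for LHCB1.2, 23317 for LHCB1.1, 147885 for LHCB1.3, 986 for GOX1 and 635 for GOX2. That reads of these 5 genes tell the copies apart therefore rests on those displacements, and their values are uncertain to that extent.

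The 37 genes were among the most heavily read of the leaf. In Col-0 their levels ranged from 435 to 45411 RPKM, with LHCB1.3 the second highest of all countable genes and FNR2 (AT1G20020), which encodes ferredoxin-NADP reductase, the lowest of the 37 at rank 224. The 100 highest genes held 24 of the 37 in *suvr5 ldl1 ldl2*, 26 in *ldl1 ldl2*, 27 in *suvr5-1* and 29 in Col-0. The median gene with a read stood between 10.5 and 11.5 RPKM in the 4 libraries, far below every one of the 37.

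**Figure D1:**
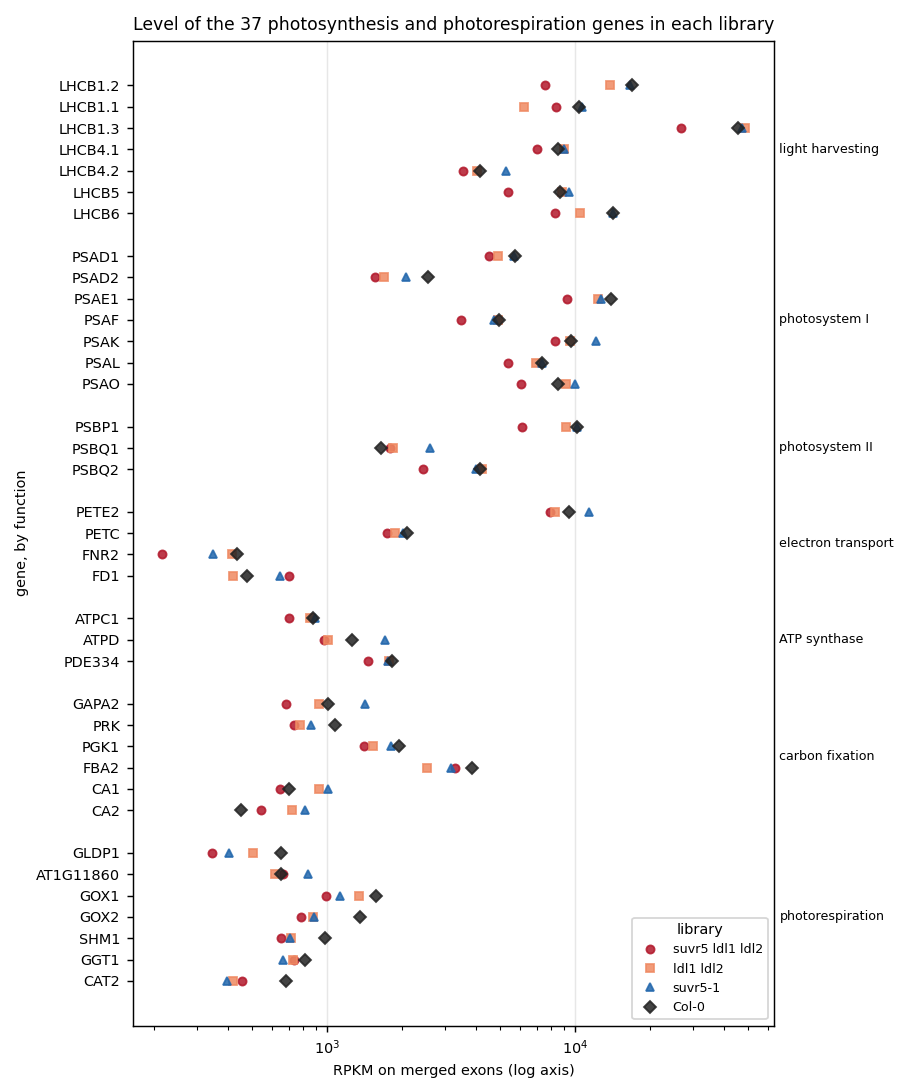
RPKM on merged exons (log axis) of each of the 37 genes, grouped by function down the page, in the *suvr5 ldl1 ldl2*, *ldl1 ldl2*, *suvr5-1* and Col-0 libraries (1 point each). The red *suvr5 ldl1 ldl2* points are the lowest of the 4 for 29 of the 37 genes, and LHCB1.3 is the highest of the 37 in each library.

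Together the 37 genes took 17.6% of the reads on genes in *suvr5 ldl1 ldl2*, 23.9% in *ldl1 ldl2* and 26.8% in *suvr5-1*, against 26.0% in Col-0. The Wilson 95% intervals of these shares ran from 17.59% to 17.68% in *suvr5 ldl1 ldl2*, 23.86% to 23.96% in *ldl1 ldl2*, 26.75% to 26.83% in *suvr5-1* and 25.97% to 26.07% in Col-0. The triple mutant library was thus the low one, and the *suvr5-1* library lay slightly above Col-0. In bulk leaf RNA, fewer photosynthetic cells and less of this RNA per cell cannot be told apart. The light-harvesting genes made up most of the gap, with 8.53% of the reads in *suvr5 ldl1 ldl2*, 12.8% in *ldl1 ldl2* and 14.3% in *suvr5-1*, against 13.7% in Col-0. The 3 LHCB1 copies alone took 5.32% in *suvr5 ldl1 ldl2*, 8.49% in *ldl1 ldl2* and 9.25% in *suvr5-1*, against 9.03% in Col-0. Photorespiration was the only one of the 7 groups whose share was highest in Col-0, at 1.01% in *suvr5 ldl1 ldl2*, 1.14% in *ldl1 ldl2* and 1.09% in *suvr5-1*, against 1.47% in Col-0.

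**Figure D2:**
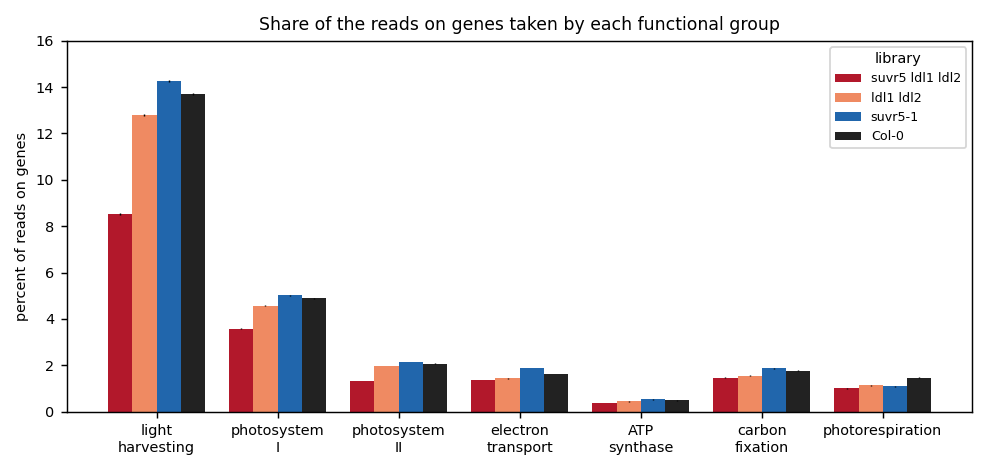
Percent of the reads on genes (vertical axis, from 0) taken by each of the 7 functional groups in the *suvr5 ldl1 ldl2*, *ldl1 ldl2*, *suvr5-1* and Col-0 libraries, with Wilson 95% intervals as error bars that are barely wider than their lines. Light harvesting stands at 8.53% in *suvr5 ldl1 ldl2* against 13.7% in Col-0, and photorespiration is lower in all 3 mutants than in Col-0.

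The triple mutant was compared with Col-0 to ask how these genes stood when both SUVR5 and the LDL proteins were lost. A gene was called when its RPKM differed by over 2-fold and its adjusted P was under 0.01. The P came from Fisher's exact test (two-sided) of the gene's reads among all reads on exons, with Benjamini-Hochberg adjustment over 12153 genes. By this rule 0 of the 37 genes rose and 2 fell, LHCB1.2 and FNR2, beside 10.4% of all genes tested that were higher and 4.33% that were lower. At a threshold of 1.5-fold, 0 were higher and 13 lower, beside 15.4% and 7.8% of all genes. None passed 4-fold, beside 4.82% higher and 1.42% lower of all genes. In all, 33 of the 37 genes were below Col-0 and 4 above, and their median log2 ratio was -0.47, a ratio of 0.724, while the median of all genes tested was 0.16. With reads on genes other than the 37 as library size, every ratio in this comparison was 0.15 lower on the log2 scale, also for genes outside the 37. With that size 35 of the 37 were below Col-0. The median of all genes and the shares of all genes called depend on this choice too. With a beta-binomial test that assumes a dispersion of 0.1 between plants, 0 of the 37 were called (smallest adjusted P = 0.538), 0 had an unadjusted P under 0.05, and 247 genes were called in all. That assumption sets the spread of the test however many reads a gene has. The dark-induced gene DIN1, at 0.169 of Col-0, was itself not called (adjusted P = 0.0104, beta-binomial test). The lowest of the 37 stood at 0.447, so their 0 calls follow from the assumed dispersion.

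All 7 light-harvesting genes were below Col-0 in the triple mutant, 4 of them past 1.5-fold, with a median log2 ratio of -0.69. LHCB1.2, the lowest of the 37 by this ratio, had 7605 RPKM in *suvr5 ldl1 ldl2*, 13894 in *ldl1 ldl2* and 16730 in *suvr5-1*, against 17007 in Col-0. It fell to 0.447 of Col-0 in the triple mutant (log2 -1.16, counting interval 0.441 to 0.454), and its adjusted P from Fisher's exact test was too small to be told from 0. With each position counted once its log2 ratio was -0.24 and it was not called, nor was it with the beta-binomial test (adjusted P = 0.538). In the former count a position adds at most 1 per strand, however many reads it has. Of the positions of LHCB1.2, 54.4% were occupied in *suvr5 ldl1 ldl2* and 57.4% in Col-0, so that count could follow its level only in part. LHCB1.3 had 26731 RPKM in *suvr5 ldl1 ldl2*, 48554 in *ldl1 ldl2* and 47171 in *suvr5-1*, against 45411 in Col-0, a log2 ratio of -0.76 in the triple mutant that did not reach 2-fold. The 3 copies therefore did not keep 1 ratio, since LHCB1.1 stood at 8394 RPKM in *suvr5 ldl1 ldl2*, 6250 in *ldl1 ldl2* and 10679 in *suvr5-1*, against 10393 in Col-0. Of the minor antenna proteins, LHCB6 (AT1G15820, CP24) had log2 -0.77 and LHCB5 (AT4G10340, CP26) -0.69 in the triple mutant against Col-0, while the CP29 genes LHCB4.1 (AT5G01530) and LHCB4.2 (AT3G08940) had -0.29 and -0.22.

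All 7 photosystem I genes were below Col-0 in *suvr5 ldl1 ldl2*, with log2 ratios between -0.72 and -0.22 and a median of -0.49, and they were also below both other mutants. PSAD2 (AT1G03130), a copy of the PsaD subunit that docks ferredoxin, was the lowest of them at 1559 RPKM in *suvr5 ldl1 ldl2*, 1697 in *ldl1 ldl2* and 2087 in *suvr5-1*, against 2561 in Col-0, and passed 1.5-fold. PSAE1 (AT4G28750), PSAF (AT1G31330), PSAL (AT4G12800) and PSAO (AT1G08380), which encode further subunits of photosystem I, had log2 ratios of -0.58, -0.50, -0.46 and -0.49 in the triple mutant against Col-0, PSAD1 (AT4G02770) had -0.34 and PSAK (AT1G30380) -0.22. The 3 photosystem II genes had a median of -0.75. PSBP1 (AT1G06680) and PSBQ2 (AT4G05180), which encode proteins that shield the oxygen-evolving centre, had log2 ratios of -0.75 each in the triple mutant and passed 1.5-fold. Their relative PSBQ1 (AT4G21280) had 0.11, so that it was above Col-0 in the triple mutant, but not with median-of-ratios size factors, where it was -0.01, or with reads on genes other than the 37 as library size, where it was -0.04.

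**Figure D3:**
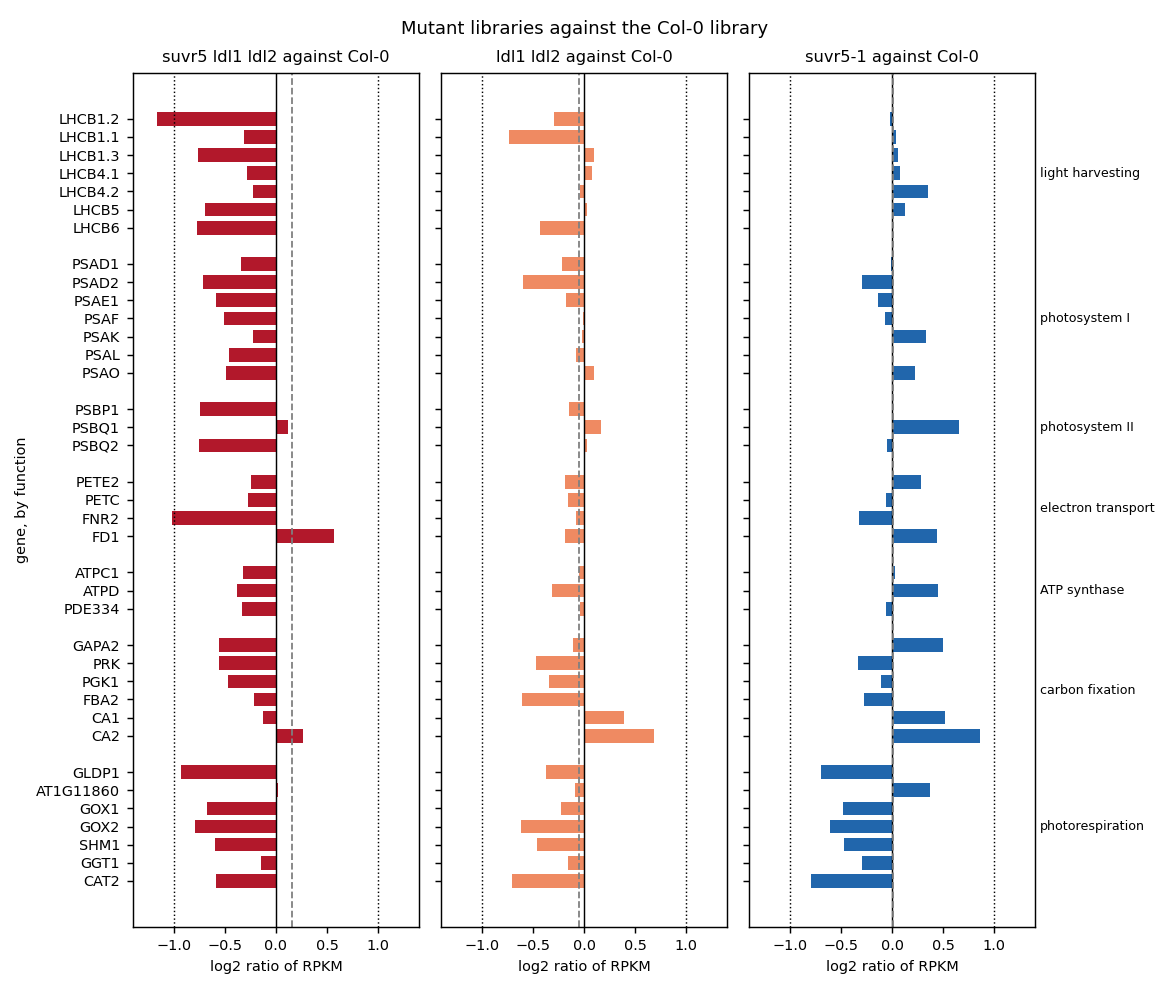
Log2 ratio of RPKM of each of the 37 genes in *suvr5 ldl1 ldl2* (left), *ldl1 ldl2* (middle) and *suvr5-1* (right), each against the same Col-0 library, with dotted lines at 2-fold and a dashed line at the median of all genes tested. On the left 33 of 37 bars point below Col-0 and 2 pass the lower dotted line, and photorespiration genes other than AT1G11860 point below Col-0 in all 3 panels.

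Electron carriers differed among themselves. FNR2 had 216 RPKM in *suvr5 ldl1 ldl2*, 412 in *ldl1 ldl2* and 348 in *suvr5-1*, against 435 in Col-0. It fell to 0.496 of Col-0 in the triple mutant (log2 -1.01, counting interval 0.462 to 0.532, adjusted P = 1.23e-89 by Fisher's exact test), just past the threshold, and without the most-read 10% of positions it stood at -0.66 and was not called. With each position counted once it stood at -0.52, and it was not called there or with the beta-binomial test (adjusted P = 0.672). FD1 (AT1G10960), a ferredoxin that hands electrons to this reductase, stood on the other side at 706 RPKM in *suvr5 ldl1 ldl2*, 419 in *ldl1 ldl2* and 649 in *suvr5-1*, against 478 in Col-0. Its log2 ratio in the triple mutant was 0.56 against Col-0 and 0.75 against *ldl1 ldl2*, past 1.5-fold only against *ldl1 ldl2*. PETE2 (AT1G20340, plastocyanin) and PETC (AT4G03280, the Rieske protein of the cytochrome b6f complex) had -0.25 and -0.27. The 3 ATP synthase genes ATPC1 (AT4G04640), ATPD (AT4G09650) and PDE334 (AT4G32260) had -0.32, -0.38 and -0.33 in the triple mutant against Col-0, none past 1.5-fold.

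Of the 6 carbon fixation genes, 5 were below Col-0 in *suvr5 ldl1 ldl2* and none passed 1.5-fold. GAPA2 (AT1G12900), a subunit of the chloroplast glyceraldehyde-3-phosphate dehydrogenase, had 684 RPKM in *suvr5 ldl1 ldl2*, 933 in *ldl1 ldl2* and 1427 in *suvr5-1*, against 1008 in Col-0. PRK (AT1G32060, phosphoribulokinase) had log2 -0.56, PGK1 (AT3G12780, phosphoglycerate kinase) -0.47 and FBA2 (AT4G38970, aldolase) -0.22. The carbonic anhydrase genes, which interconvert carbon dioxide and bicarbonate, stood apart: CA1 (AT3G01500) had -0.13 and CA2 (AT5G14740) 0.27.

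Of the 7 photorespiration genes, 6 were below Col-0 in *suvr5-1*, with a median log2 ratio of -0.48. In that library 0 of the 37 genes were called in either direction at 2-fold, beside 5.92% of the 11857 genes tested that were higher and 5.15% that were lower. At 1.5-fold, 2 were higher and 3 lower, beside 9.02% and 8.89% of all genes, and the 3 lower ones, GLDP1 (AT4G33010), GOX2 and CAT2 (AT4G35090), are all photorespiratory. None passed 4-fold, beside 2.59% and 1.87%. The share of the 37 that was lower is thus close to that of all genes. With the beta-binomial test none of the 37 was called (smallest adjusted P = 0.895) and 0 had an unadjusted P under 0.05. At ratios under 2-fold this again follows from the assumed dispersion. The median log2 ratio of the 37 was -0.00 and that of all genes tested 0.01. Scaled by all nuclear reads, every log2 ratio in *suvr5-1* was 0.27 higher, which put the median of the 37 at 0.26 and that of the photorespiration genes at -0.21. Chromosome 3 alone held 54.9% of the nuclear reads in *suvr5 ldl1 ldl2*, 51.9% in *ldl1 ldl2* and 44.6% in *suvr5-1*, against 52.8% in Col-0. The part of chromosome 3 in this shift was not tested. In *ldl1 ldl2*, 0 of the 37 were called at 2-fold, beside 9.05% of 11802 genes higher and 5.97% lower. At 1.5-fold 1 was higher and 5 were lower, beside 12.6% and 10.4%, none passed 4-fold, beside 4.31% and 2.05%, and the median of the 37 was -0.16, of all genes -0.05 and of the photorespiration genes -0.37. The median of the 37 in *ldl1 ldl2* turned to 0.45 with each position counted once, where 27 of the 37 changed sign, and to 0.08 without the most-read 10% of positions, where 12 did. Counting positions once can follow the levels of genes read this heavily only in part. A median of 43.9% of their exon positions were occupied in *ldl1 ldl2* and 47.3% in Col-0. The library sizes of that count were 509704 in *ldl1 ldl2* and 792177 in Col-0. The turn to 0.45 is therefore no check of direction. The 3 mutants share the Col-0 library, so any value particular to that library enters all 3 comparisons.

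CAT2, the leaf catalase that removes the hydrogen peroxide made by glycolate oxidase, had 455 RPKM in *suvr5 ldl1 ldl2*, 419 in *ldl1 ldl2* and 395 in *suvr5-1*, against 684 in Col-0. GLDP1, the P-protein of glycine decarboxylase, had 343 RPKM in *suvr5 ldl1 ldl2*, 505 in *ldl1 ldl2* and 402 in *suvr5-1*, against 652 in Col-0. GOX2, a glycolate oxidase, had 786 RPKM in *suvr5 ldl1 ldl2*, 882 in *ldl1 ldl2* and 890 in *suvr5-1*, against 1356 in Col-0. All 3 mutant libraries were below Col-0 in each of these genes. The neighbouring GOX1 had 988 RPKM in *suvr5 ldl1 ldl2*, 1351 in *ldl1 ldl2* and 1132 in *suvr5-1*, against 1580 in Col-0. SHM1 (AT4G37930), the serine hydroxymethyltransferase of the same mitochondrial step, had 653 RPKM in *suvr5 ldl1 ldl2*, 718 in *ldl1 ldl2* and 712 in *suvr5-1*, against 986 in Col-0. GOX1 and SHM1 thus had the same order, with Col-0 highest and the triple mutant lowest. GGT1 (AT1G23310), a glutamate:glyoxylate aminotransferase, was closer, with 736 RPKM in *suvr5 ldl1 ldl2*, 726 in *ldl1 ldl2* and 662 in *suvr5-1*, against 812 in Col-0. AT1G11860, annotated as a T-protein of the same glycine cleavage complex, did not share this order, at 664 RPKM in *suvr5 ldl1 ldl2*, 615 in *ldl1 ldl2* and 842 in *suvr5-1*, against 653 in Col-0.

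As log2 ratios to Col-0, the largest of these were GLDP1 at -0.93 in *suvr5 ldl1 ldl2* and CAT2 at -0.79 in *suvr5-1* and -0.71 in *ldl1 ldl2*. The 6 genes other than AT1G11860 were below Col-0 in all 3 mutants with each of the 4 library sizes tried. The group median was also below 0 with every read-based count. In *ldl1 ldl2* it was 0.20 when each position was counted once, which follows heavily read genes only in part. Against the single and double mutants the triple mutant was closer, with group medians of -0.18 against *suvr5-1* and -0.14 against *ldl1 ldl2*, and none of the 7 past 1.5-fold.

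Genes induced in darkness or in senescence were also highest in Col-0 in 5 of 6 cases, in PPH only narrowly (97.7 RPKM, against 95.2 in *ldl1 ldl2*). DIN1, a gene induced in the dark, stood at 104 RPKM in *suvr5 ldl1 ldl2*, 309 in *ldl1 ldl2* and 273 in *suvr5-1*, against 618 in Col-0, and DIN10, another such gene, at 22.3 RPKM in *suvr5 ldl1 ldl2*, 40.2 in *ldl1 ldl2* and 53.8 in *suvr5-1*, against 127 in Col-0. Both fell past 2-fold in each mutant, DIN1 in *ldl1 ldl2* only just (ratio 0.4999). SAG29, a senescence gene, had 0 reads in *suvr5 ldl1 ldl2*, 5 in *ldl1 ldl2* and 1 in *suvr5-1*, against 34 in Col-0. The other 3 genes of this list, which act in chlorophyll breakdown, were not called at 2-fold against Col-0. The part of these differences in the photorespiration values was not tested.

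The carbonic anhydrase gene CA2 had the highest ratio to Col-0 of the 37 in both *suvr5-1* and *ldl1 ldl2*. It had 542 RPKM in *suvr5 ldl1 ldl2*, 722 in *ldl1 ldl2* and 815 in *suvr5-1*, against 450 in Col-0. Its ratio to Col-0 was 1.81 in *suvr5-1* (counting interval 1.75 to 1.88) and 1.60 in *ldl1 ldl2*, past 1.5-fold in both and under 2-fold. Without the most-read 10% of positions its log2 ratio in *suvr5-1* was 1.01, and scaled by nuclear reads it was 1.12, and it was called in both cases. CA1 had 646 RPKM in *suvr5 ldl1 ldl2*, 925 in *ldl1 ldl2* and 1011 in *suvr5-1*, against 705 in Col-0, with log2 ratios of 0.52 in *suvr5-1* and 0.39 in *ldl1 ldl2*. CA1 and CA2 were thus above Col-0 in *suvr5-1* and *ldl1 ldl2*, while CA1 was not in the triple mutant.

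Among the other genes in *suvr5-1*, PSBQ1 stood out at 1791 RPKM in *suvr5 ldl1 ldl2*, 1852 in *ldl1 ldl2* and 2604 in *suvr5-1*, against 1656 in Col-0. Its ratio of 1.57 in *suvr5-1* to Col-0 (counting interval 1.52 to 1.63) passed 1.5-fold. GAPA2, ATPD, FD1, LHCB4.2 and PSAK had log2 ratios of 0.50, 0.45, 0.44, 0.35 and 0.33 in *suvr5-1*, below that threshold. The LHCB1 copies were close to Col-0 there, between -0.02 and 0.05. In *ldl1 ldl2*, LHCB1.1 at -0.73, CAT2 at -0.71, GOX2 at -0.62, FBA2 at -0.60 and PSAD2 at -0.59 were the 5 lower genes past 1.5-fold.

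The triple mutant was then set against the mutants it combines. Against *suvr5-1*, 0 of the 37 rose and 2 fell at 2-fold, LHCB1.2 and GAPA2, beside 10% of 12091 genes higher and 4.71% lower. At 1.5-fold 12 were lower and 0 higher, beside 8.05% and 16.5% of all genes. None passed 4-fold, beside 3.81% higher and 1.47% lower, and the median of the 37 was -0.43 while that of all genes was 0.19. GAPA2 fell to 0.479 of *suvr5-1* (counting interval 0.461 to 0.499), and without the most-read 10% of positions its log2 ratio was -0.98 and it was not called. Against *ldl1 ldl2*, 0 were called at 2-fold, beside 9.74% of 12095 genes higher and 5.8% lower. At 1.5-fold 1 was higher, FD1, and 7 were lower, beside 15.4% and 8.76%. None passed 4-fold, beside 4.03% and 2.58%, and the median of the 37 was -0.28 while that of all genes was 0.20. In 29 of the 37 genes the triple mutant library was the lowest of the 4, including all 7 photosystem I genes, 6 of the 7 light-harvesting genes and all 3 ATP synthase genes. LHCB1.1 was the light-harvesting exception, being lowest in *ldl1 ldl2*.

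Closely related genes were also compared within each library, where library size plays no part. All mutants were set against the same Col-0 library, so a value particular to it enters every such comparison. Uneven read positions, described below, were not taken into account. PSBQ1 had 0.574 reads for each read of PSBQ2 in *suvr5 ldl1 ldl2* (exact binomial 95% interval 0.555 to 0.593), 0.344 in *ldl1 ldl2* (0.333 to 0.356) and 0.513 in *suvr5-1* (0.502 to 0.525), against 0.314 in Col-0 (0.304 to 0.325). Both libraries with a *suvr5* mutation were thus high, and *ldl1 ldl2* was near Col-0, though above it beyond the intervals. PSBQ1 was above Col-0 in *suvr5-1*, whereas in the triple mutant it was PSBQ2 that was low. PSAD1 over PSAD2 was 3.43 in *suvr5 ldl1 ldl2*, 3.44 in *ldl1 ldl2* and 3.22 in *suvr5-1*, against 2.65 in Col-0. CA1 over CA2 was 1.26 in *suvr5 ldl1 ldl2*, 1.35 in *ldl1 ldl2* and 1.31 in *suvr5-1*, against 1.65 in Col-0. For both of these pairs the counting intervals of all 3 mutants lay on 1 side of that of Col-0, and some mutants also differed from each other beyond them. GOX1 over GOX2 was 1.38 in *suvr5 ldl1 ldl2*, 1.68 in *ldl1 ldl2* and 1.39 in *suvr5-1*, against 1.28 in Col-0. Its intervals in all 3 mutants also lay above that of Col-0, narrowly in *suvr5 ldl1 ldl2* (lower limit 1.321, against an upper limit of 1.317 in Col-0). LHCB4.1 over LHCB4.2 was 2.02 in *suvr5 ldl1 ldl2*, 2.30 in *ldl1 ldl2* and 1.76 in *suvr5-1*, against 2.12 in Col-0.

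The balance among the LHCB1 copies also differed between libraries. LHCB1.1 had 1.19 reads for each read of LHCB1.2 in *suvr5 ldl1 ldl2*, 0.483 in *ldl1 ldl2* and 0.686 in *suvr5-1*, against 0.657 in Col-0. LHCB1.3 over LHCB1.1 was 2.98 in *suvr5 ldl1 ldl2*, 7.27 in *ldl1 ldl2* and 4.13 in *suvr5-1*, against 4.09 in Col-0. In both of these ratios *suvr5 ldl1 ldl2* and *ldl1 ldl2* lay on opposite sides of Col-0. LHCB1.3 over LHCB1.2 was 3.54 in *suvr5 ldl1 ldl2*, 3.51 in *ldl1 ldl2* and 2.84 in *suvr5-1*, against 2.69 in Col-0. Here the counting intervals of all 3 mutants lay above that of Col-0, with the double and triple mutants farthest from it. The *suvr5-1* library was the nearest of the 3 mutants to Col-0 in all 3 ratios. Relative to Col-0, PSBQ1 over PSBQ2 differed by 1.83 times in *suvr5 ldl1 ldl2*, LHCB1.1 over LHCB1.2 by 1.81 times in *suvr5 ldl1 ldl2* and LHCB1.3 over LHCB1.1 by 1.78 times in *ldl1 ldl2*.

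**Figure D4:**
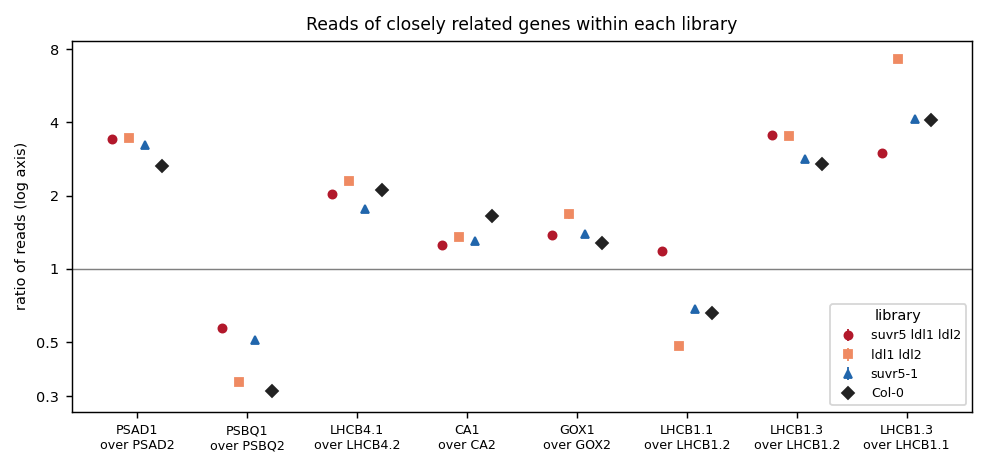
Ratio of reads (log axis) between closely related genes within the *suvr5 ldl1 ldl2*, *ldl1 ldl2*, *suvr5-1* and Col-0 libraries, with exact binomial 95% intervals that are mostly smaller than the points. PSBQ1 over PSBQ2 is higher in *suvr5 ldl1 ldl2* (0.574) and *suvr5-1* (0.513) than in Col-0 (0.314), and LHCB1.3 over LHCB1.1 ranges from 2.98 in *suvr5 ldl1 ldl2* to 7.27 in *ldl1 ldl2*, with Col-0 at 4.09.

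Promoter sequences of 250 bases before the annotated start were searched on both strands for 4 short motifs. The G-box CACGTG, a core site of bZIP and bHLH factors that is common in light-regulated promoters, occurred in 8 of the 37 (21.6%) and in 6.56% of the 13368 protein-coding genes counted. The 8 were LHCB4.1, LHCB6, PSBQ1, PSBQ2, ATPD, PRK, GLDP1 and GGT1. The I-box core GATAAG occurred in 9 of 37 (24.3%) and in 12.6% of all, and the evening element AAAATATCT in 1 of 37 (2.7%), ATPC1, and in 2.39% of all. TACTAGTA, the octamer bound by the SUVR5 zinc fingers in the study, occurred in 1 of 37 (2.7%), GGT1, and in 0.726% of all. These motifs do not overlap one another in letters, a match is a description and not a site, and the window leaves out sequence farther upstream.

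The promoters of PSBQ1 and PSBQ2 are shown because the ratio of this pair differed between libraries. Each holds 2 G-boxes, PSBQ2 also holds an I-box core, and the part of these motifs was not tested. The promoter of GGT1 is shown because it holds the octamer (TAIR10.1, RefSeq, gene strand, capitals at the motifs).
PSBQ1, chr4:11334102-11334351, plus strand: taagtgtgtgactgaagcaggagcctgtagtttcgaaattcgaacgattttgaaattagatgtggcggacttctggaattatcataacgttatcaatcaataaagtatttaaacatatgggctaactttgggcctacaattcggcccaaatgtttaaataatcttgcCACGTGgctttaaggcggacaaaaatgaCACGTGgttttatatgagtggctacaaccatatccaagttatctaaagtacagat
PSBQ2, chr4:2673244-2673493, minus strand: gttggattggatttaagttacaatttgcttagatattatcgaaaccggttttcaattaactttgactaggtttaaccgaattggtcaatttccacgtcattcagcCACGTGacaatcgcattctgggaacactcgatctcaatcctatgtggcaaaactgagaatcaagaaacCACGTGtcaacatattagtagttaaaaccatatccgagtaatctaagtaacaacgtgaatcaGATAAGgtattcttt
GGT1, chr1:8272022-8272271, minus strand: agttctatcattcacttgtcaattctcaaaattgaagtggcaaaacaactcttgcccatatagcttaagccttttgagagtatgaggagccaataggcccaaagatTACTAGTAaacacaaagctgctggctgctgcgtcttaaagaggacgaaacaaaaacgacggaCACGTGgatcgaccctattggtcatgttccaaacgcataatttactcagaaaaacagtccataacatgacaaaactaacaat
GGT1, with the octamer, had a log2 ratio to Col-0 of -0.29 in *suvr5-1*, which is within 1.5-fold.

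Of 22 other genes of the same pathways, outside the 37, 9 were above and 13 below Col-0 in *suvr5 ldl1 ldl2*, and their median log2 ratio was -0.13. At 2-fold 1 was higher and 1 lower, beside 10.4% and 4.33% of all genes, and at 1.5-fold 3 were higher and 5 lower, beside 15.4% and 7.8%. The lower one was PSB27, an assembly factor of photosystem II, at 475 RPKM in *suvr5 ldl1 ldl2*, 582 in *ldl1 ldl2* and 901 in *suvr5-1*, against 963 in Col-0. The higher one was LPD2, a mitochondrial lipoamide dehydrogenase, at 97.9 RPKM in *suvr5 ldl1 ldl2*, 63.9 in *ldl1 ldl2* and 46.8 in *suvr5-1*, against 40.3 in Col-0. In *suvr5-1*, 13 of the 22 were above Col-0 and 9 below, with a median log2 ratio of 0.18. At 2-fold 0 were higher there and 1 lower, beside 5.92% and 5.15% of all genes. That gene was CAT1, a catalase gene related to CAT2, at 16.8 RPKM, against 38.0 in Col-0, a log2 ratio of -1.18. CAT3, also a catalase gene, was above Col-0 at log2 0.12 in *suvr5 ldl1 ldl2*, 0.38 in *ldl1 ldl2* and 0.15 in *suvr5-1*.

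All 11 chlorophyll synthesis genes were below Col-0 in *suvr5 ldl1 ldl2*, with a median of -0.39 while that of all genes tested was 0.16. At 2-fold, beside 10.4% of all genes higher and 4.33% lower, 0 of the 11 rose and 2 fell. These were PORB, a protochlorophyllide oxidoreductase, at 424 RPKM in *suvr5 ldl1 ldl2*, 661 in *ldl1 ldl2* and 909 in *suvr5-1*, against 866 in Col-0, and DVR, a divinyl reductase, at 21.0 RPKM in *suvr5 ldl1 ldl2*, 39.4 in *ldl1 ldl2* and 78.9 in *suvr5-1*, against 63.7 in Col-0. Their log2 ratios in the triple mutant were -1.03 and -1.60. In *ldl1 ldl2* 10 of the 11 were below Col-0 and none passed 2-fold, beside 9.05% of all genes higher and 5.97% lower. In *suvr5-1* 6 were above and 5 below with none past 1.5-fold, beside 9.02% of all genes higher and 8.89% lower.

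Read positions were uneven along the genes, and more so in Col-0. The 10 most-read positions of a gene held a median of 15.0% of its reads in *suvr5 ldl1 ldl2*, 13.2% in *ldl1 ldl2* and 14.3% in *suvr5-1*, against 17.5% in Col-0. This share was lower than in Col-0 for 35 of the 37 genes in *suvr5 ldl1 ldl2*, 36 in *ldl1 ldl2* and 37 in *suvr5-1*. Exon positions past the middle of a gene, nearer its 3′ end, held a median of 77.7% of the reads in *suvr5 ldl1 ldl2*, 75.7% in *ldl1 ldl2* and 78.7% in *suvr5-1*, against 81.9% in Col-0. When the most-read 10% of positions was left out, an alternative chosen after seeing the data, the median log2 ratio of the 37 to Col-0 was -0.38 in *suvr5 ldl1 ldl2*, 0.08 in *ldl1 ldl2* and 0.02 in *suvr5-1*, and that of the photorespiration genes -0.38 in *suvr5 ldl1 ldl2*, -0.24 in *ldl1 ldl2* and -0.40 in *suvr5-1*. The part of this unevenness in the ratios was not otherwise tested. A total of 13 of the 37 genes share exon bases with a neighbouring gene, most in CA1 with 343 of its 3266 bases. By share, PSAE1 had the most at 34.1% (272 of 798 bases), and LHCB6 had 246 of 1204 bases. Reads on shared bases cannot be told apart because strand was not used.

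**Figure D5:**
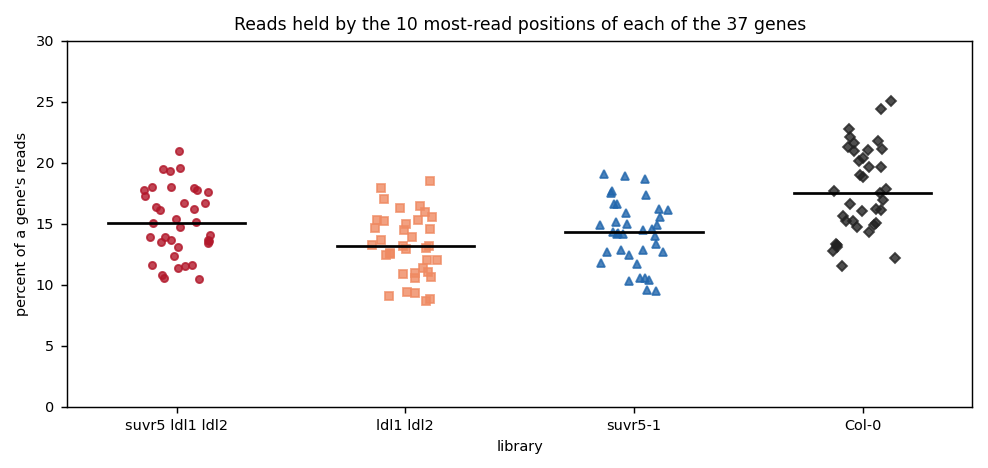
Percent of the reads of each of the 37 genes held by its 10 most-read positions (vertical axis, 1 point per gene) in the *suvr5 ldl1 ldl2*, *ldl1 ldl2*, *suvr5-1* and Col-0 libraries, with a line at the median. The median is 17.5% in Col-0 and between 13.2% and 15.0% in the mutants.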

How the data were processed

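Poly(A) RNA libraries, 1 per genotype, had been mapped by the authors (Bowtie is named in the submitters' processing notes; its version and the assembly are not given in the sources used here). The deposited files hold, in other units than counts per gene, 1 line per mapped read with chromosome, strand and leftmost position from 0. Reads lay up to 13611 bp past TAIR10.1 chromosome ends, so the assembly differs. Read starts were therefore counted on merged TAIR10.1 exons, unshifted, only in 6 stretches (50.84 Mb, 42.67% of the nuclear assembly) of 250000-bp windows. There the displacement between reads and exon starts, found at up to 20000 bp, was at most 30 bp with z of at least 5 in a window and its neighbours, and ran from -26 to 17 bp.

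RPKM used reads on these exons. The 5 comparisons used two-sided Fisher's exact tests per gene and Benjamini-Hochberg adjustment (Python 3.11.15, SciPy 1.17.1). These were run on simulated counts with no variation between plants, a check of the computation and not of the calls. Alternatives were other library sizes, each position counted once, whole genes, fold thresholds of 1.5 and 4, a beta-binomial test, at least 100 reads, and lists without near-identical copies. The members and lists were chosen with earlier results of these data known. All members are named, with LDL2 and ACT7, and of other lists the genes called at 2-fold against Col-0. SUC2, MYB60, ATML1, PPH, CAT3 and the root and seed markers, outside this rule, were named after their values were seen. Strand was not used, and p-values measure counting error between 2 libraries.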

Additional observations from a re-analysis of the deposited data

How the results depend on the processing

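With 1 library per genotype, no library could be left out, and no paired analysis was possible because no genotype has a second library. The 37 genes had between 924 and 267525 reads in a library, but variation between plants could not be measured. Distinct positions and strands numbered 15.7% of the nuclear reads in *suvr5 ldl1 ldl2*, 11.6% in *ldl1 ldl2*, 12.8% in *suvr5-1* and 15.4% in Col-0. Reads that share a position were treated as independent, so intervals and P values may understate even counting error. Of 100 alternative values of the 5 medians and 5 counts, 66 were the same within their limits, set by the spread over the 37 genes for a median and 1.5 times for a count. The cause was not tested where a value moved. Counting each position once follows genes read this heavily only in part. At its assumed dispersion the beta-binomial test could not call ratios near 2-fold. Values from these 2 settings therefore do not check a change of that size. Nuclear reads as library size include those of chromosome 3, whose share was lowest in *suvr5-1* (44.6%, against 52.8% in Col-0). For the triple mutant *suvr5 ldl1 ldl2* against Col-0, the median log2 ratio of -0.47 became -0.62 with reads on other genes as library size (a shift of -0.15 for every gene), -0.59 with median-of-ratios size factors (a shift of -0.12) and -0.18 with each position counted once, and the 2 genes called became 0 with each position counted once, 1 without the most-read 10% of positions, 0 with the beta-binomial test, 1 without the LHCB1 copies, GOX1 and GOX2 (fewer genes), 13 at 1.5-fold and 0 at 4-fold. Against *suvr5-1*, the median of -0.43 became -0.73 with nuclear reads, -0.60 with reads on other genes and -0.18 with each position once, and the 2 called became 8 with nuclear reads, 0 with each position once, 1 without the most-read positions, 0 with the beta-binomial test, 1 without the copies, 12 at 1.5-fold and 0 at 4-fold. Against *ldl1 ldl2*, the median of -0.28 became -0.43 with median-of-ratios size factors and -0.63 with each position once, and the 0 called became 1 with nuclear reads, 1 with reads on other genes, 3 with size factors, 1 without the most-read positions, 2 with positions nearest the 3′ end and 8 at 1.5-fold. For *ldl1 ldl2* against Col-0, the median of -0.16 reversed to 0.45 with each position once and to 0.080 without the most-read positions, and the 0 called became 6 at 1.5-fold. For *suvr5-1* against Col-0, the median of -0.00 became 0.26 with all nuclear reads, which shift every gene by 0.27, and the 0 called became 1 with nuclear reads, 1 without the most-read positions and 5 at 1.5-fold. Counting whole genes or requiring 100 reads moved none of these values past the limits.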
